A study of Mus musculus with 91 samples.

Results

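The genes described here are 34 genes of meiotic recombination and of the synaptonemal complex, and their levels were followed in germ cells sorted from fetal mouse gonads. A gene was taken when a transcript cluster of the array was annotated to it alone, by its current or an older symbol, and the cluster with the highest mean was used where there were several. Of the 34 genes, 32 were found among 19938 genes with such a cluster. *Syce3* was not listed in the annotation and *Mnd1* shared its cluster with other genes. Of these 32 genes, 31 passed the filter on low values and were tested, among 15324 genes tested in all, and *Rad21l* did not pass it.

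RNA of sorted cells was amplified and hybridised to Affymetrix Mouse Gene 1.0 ST arrays, and levels are log2 intensities after RMA normalization, so that 1 unit is a doubling. Germ cells of both sexes were taken at 3 stages (E11.5, E12.5, E13.5), with 3 arrays for each sex and stage, and were sorted by *Oct4-EGFP*, a transgene driven by *Pou5f1* regulatory sequence, in progeny of CD-1 and C57BL/6J parents. The somatic sorts are supporting cells (*Sry-EGFP*, but *Sox9-ECFP* for the XY sort from E12.5 on, in the same cross), XX stromal and XY interstitial cells (on CD-1 and a mixed background) and endothelial cells (*Flk1-mCherry*, on CD-1), each with 3 arrays per sex and stage, so that 72 arrays in 24 groups entered the fit. The cells of an array were pooled over 1 or more litters, so a level is an average over many embryos, and it cannot be told apart whether fewer cells or less RNA per cell lie behind a low level. The *Flk1-mCherry* sort of XY gonads also holds Leydig cells, as the study states, and the mesonephros was left on gonads sorted for germ cells, by the labels at E11.5 only and by the study's methods without mention of a stage. The sources thus leave unsettled whether the dissection changed between E11.5 and E12.5, and if it did, dissection and stage cannot be told apart in that step.

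The germ cell sorts carried the markers of their label, beside lower levels of somatic markers. All 8 germ cell markers were above a log2 intensity of 6, the limit of expression in the study's methods, in each of the 6 groups, and the mean over the markers lay between 9.35 and 10.1 in single arrays. The endothelial markers averaged 5.95 to 6.3, the Leydig markers 5.49 to 5.86 and the blood markers 5.74 to 6.32 in the same arrays. Markers of supporting and gonadal somatic cells averaged 6.75 to 7.15, with 5 or 6 of 6 over the limit in each group. Stromal and interstitial markers averaged 6.57 to 7.07 (2 or 3 of 3 over the limit) and those of the mesonephric epithelium 6.18 to 6.43 (2 or 3 of 4). The part of such somatic RNA in the results was not tested. Each germ cell array correlated with the other arrays of its group at a mean r of 0.986 to 0.993 over the tested clusters. The lowest such value of any array, 0.946, belonged to XY endothelial replicate 2 at E11.5.

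Meiotic prophase begins with programmed DNA breaks that are repaired on the homologous chromosome. SPO11 makes the breaks with a set of partners, PRDM9 marks the places where they fall, and DMC1 with its helpers drives the search for the homologous strand. The chromosome axes, built of meiotic cohesins and HORMAD proteins, are joined along their length by the synaptonemal complex, and MSH4 with MSH5 stabilises the intermediates that become crossovers. In the mouse XX germ cells start meiosis in the fetal ovary after STRA8 appears, whereas XY germ cells in the fetal testis stop dividing and start meiosis only after birth.

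No gene of the set was called between the sexes at E11.5, few were at E12.5, and by E13.5 most were higher in the XX cells. At E11.5, 0 of the 31 tested genes were called higher and 0 lower in XX germ cells (limma, Benjamini-Hochberg adjusted p under 0.05), where 0.119% and 0.0832% of all 16820 tested clusters were called, and 3 genes were higher and 2 lower at an unadjusted p under 0.05. Without XX replicate 1 at E11.5, or without XX replicate 2 at E12.5, 1 gene was higher at E11.5 (*Spo11*), and without XX replicate 2 at E11.5, 1 was lower (*Tex11*). At E12.5, 3 were higher (*Hormad2*, *Meiob* and *Msh4*) and 3 lower (*Mei4*, *Tex11* and *Cpeb1*) in XX germ cells, against 2.77% higher and 1.71% lower among all clusters. Only *Cpeb1* was still lower without XX replicate 1 or 3, or without XY replicate 1 or 2, of that stage. At E13.5, 21 were higher in XX germ cells, where 10.1% of all clusters were, and 1 was lower (*Trip13*), where 10.9% were. The 21 include *Spata22* and *Meiob*, which passed the filter only through XX germ cells (*Spata22* at E13.5, *Meiob* at E12.5 and E13.5), so that they had to lie higher there. *Msh4* passed it only through germ cells of E13.5, in both sexes. Without XY replicate 1 of that stage *Sun1* was called lower as well, which made 2. The median difference between XX and XY germ cells was 0 at E11.5, 0.24 at E12.5 and 0.81 at E13.5 on the log2 scale, while the median over all clusters was 0, -0.02 and -0.02. The 9 genes not called at E13.5 were *Sycp2*, *Psmc3ip*, *Rad51c*, *Brip1*, *Mlh3*, *Tex11*, *Tex14*, *Sun1* and *Cpeb1*. The germ cell markers moved the other way at E13.5. Of these 8 genes 1 was higher and 4 were lower in XX germ cells, and their mean ranged from 9.35 to 9.6 in XX and from 9.78 to 9.98 in XY arrays.

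**Figure D1:**
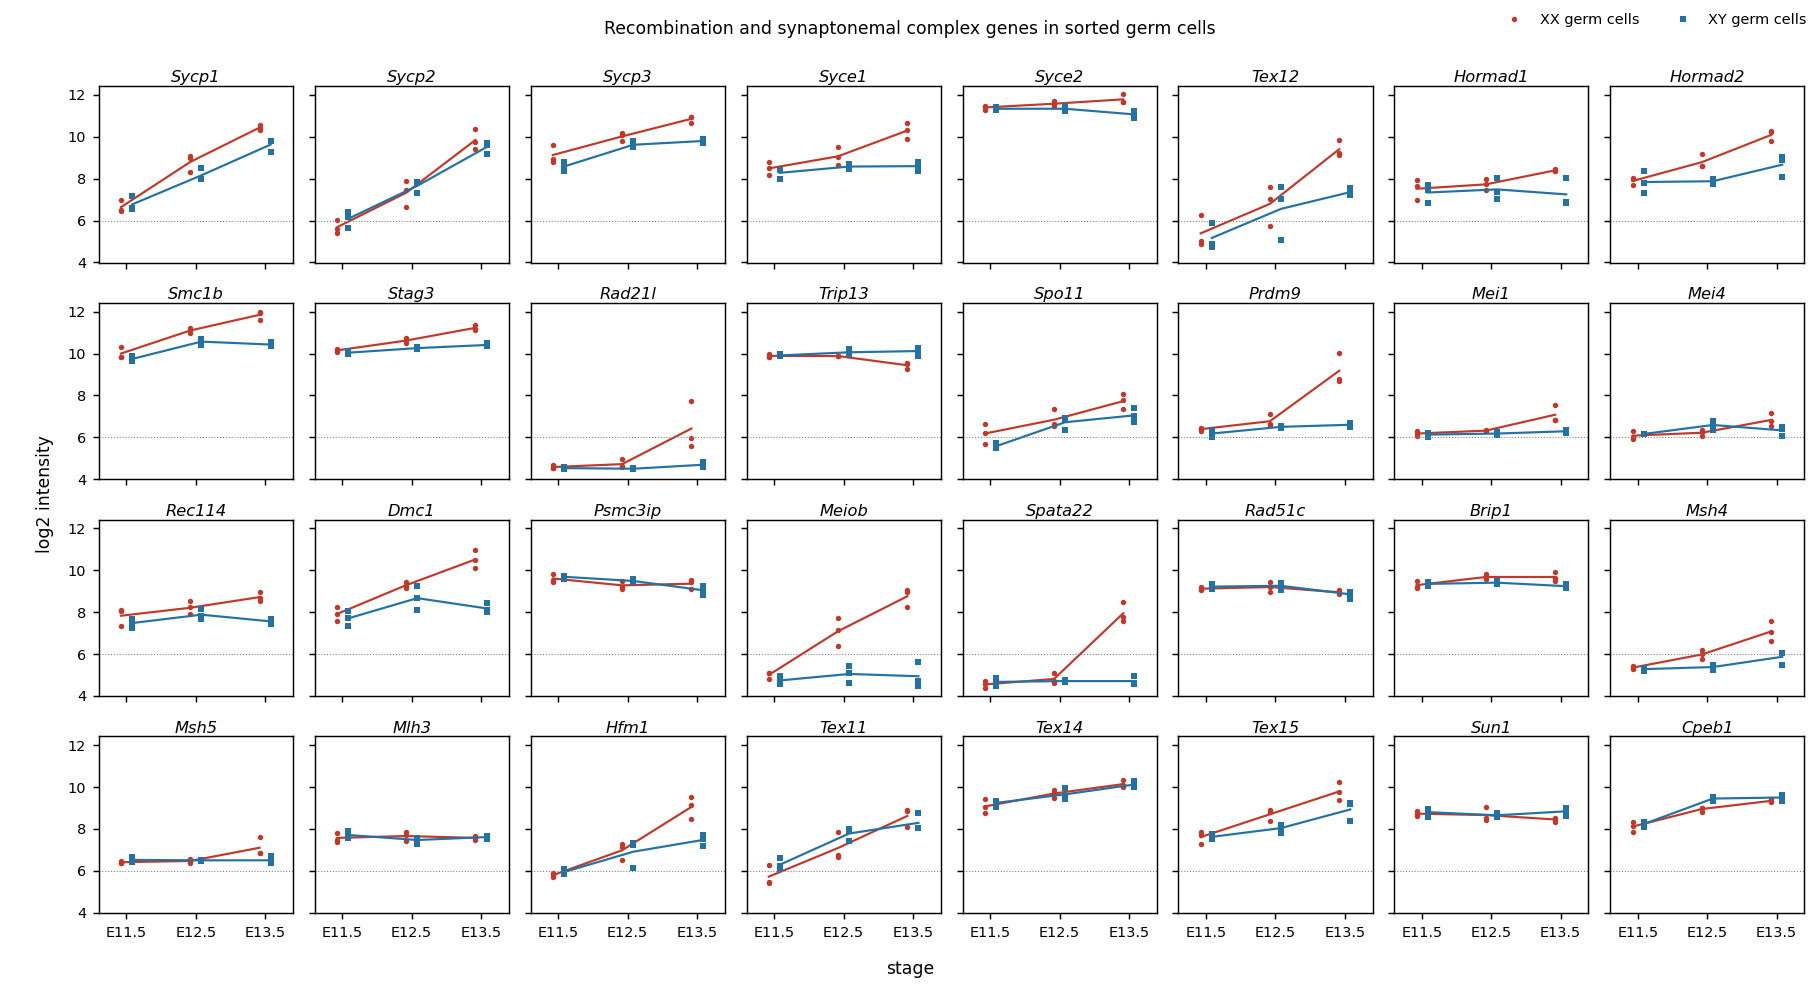
Log2 intensity of 32 recombination and synaptonemal complex genes in germ cells by stage. Each point is 1 array (XX circles, XY squares, 3 per group), lines join the group means, and the dotted line marks a log2 intensity of 6. XX and XY lines separate at E13.5 for genes such as *Spata22* and *Prdm9*, lie close for *Sycp2* and *Tex14*, and stay level for *Mlh3* and *Sun1*.

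In XX germ cells the rise went on through both steps. From E11.5 to E12.5, 16 of 31 genes rose in XX germ cells and 0 fell (0 at an unadjusted p under 0.05 as well), where 3.44% of all clusters rose and 2.00% fell. Without XX replicate 1 at E11.5, or without XX replicate 2 at E12.5, 10 genes rose in this step. From E12.5 to E13.5, 24 rose and 1 fell (*Trip13*), where 4.92% of all clusters rose and 5.84% fell. *Trip13* was not called, which left 0, without any 1 XX array of E12.5 or without XX replicate 1 or 3 of E13.5. The medians of the steps were 0.57 and 0.76, while those of all clusters were -0.01 and 0. In the 20 genes that changed by at least 1 log2 unit in XX germ cells from E11.5 to E13.5, *Prdm9* had made 13.6% of the change by E12.5, *Sycp1* 56.8%, *Smc1b* 59.6% and *Cpeb1* 68.1%. No share is given for *Rad21l* and *Spata22*, whose levels were under 6 at both earlier stages, and for genes that started under 6, such as *Meiob*, *Tex12* and *Msh4*, a share is one of measured intensities.

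A part of the set also rose in XY germ cells. From E11.5 to E12.5, 11 genes rose in XY germ cells and 0 fell (0 at an unadjusted p under 0.05), where 1.79% of all clusters rose and 1.94% fell. Without XY replicate 2 at E12.5, 7 rose, and *Tex12*, *Smc1b*, *Mei4* and *Dmc1* were no longer called. From E12.5 to E13.5, 7 rose and 0 fell (3 fell at an unadjusted p under 0.05), where 3.69% of all clusters rose and 2.98% fell. Without XY replicate 3 at E12.5, 2 fell (*Mei4* and *Dmc1*). The 7 were *Sycp1*, *Sycp2*, *Hormad2*, *Msh4*, *Hfm1*, *Tex14* and *Tex15*. This count was 4 without XY replicate 3 at E12.5 and 2 without XY replicate 2 or 3 at E13.5, and without either of these E13.5 arrays *Sycp1* and *Sycp2* remained. The medians of the XY steps were 0.32 and 0.11, while that of all clusters was 0.01 in both. Counted over both steps, 15 of 31 genes had a called rise in both sexes, 9 in XX germ cells alone, 0 in XY germ cells alone and 7 in neither, while of all tested clusters 1.9%, 5.2%, 3% and 89.9% did. A call in 1 sex alone is no test of a difference between the sexes. For *Hormad1* and *Stag3*, which are among the 9, the difference of the second steps was not called (adjusted p = 0.106 and 0.482).

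The difference between the steps was tested itself from E12.5 to E13.5. The step was larger in XX than in XY germ cells for 13 of 31 genes, where 1.5% of all clusters had a larger step in XX, and smaller for 0, where 1.94% had a smaller one (1 at an unadjusted p under 0.05). The median difference of the steps was 0.63 for the set and 0 for all clusters. Among them *Prdm9* had a difference of 2.3 ± 0.24 (SE) and *Tex12* one of 1.81 ± 0.46. *Spata22* had 3.14 ± 0.17, but it passed the filter only through XX germ cells of E13.5, and the other germ cell groups had means of 4.55 to 4.81, so that this is a difference of measured intensities against levels under 6. *Meiob*, also among the 13, passed the filter only through XX germ cells of E12.5 and E13.5, and its XY levels were under 6. The XY means of *Msh4*, another of the 13, were under 6 as well. The 13 genes come from all groups of roles but the axis proteins with meiotic cohesin and the 4 genes of other roles. *Rad21l*, a meiotic cohesin gene, was not tested by its chosen cluster. Its second cluster, which passed the filter only through XX germ cells of E13.5, had a difference of 1.73 ± 0.17. That value was thus partly set by the filter. With the replicate number as a block *Sycp2* was called as well (0.67 ± 0.18, adjusted p = 0.0259) and *Msh5* was not (adjusted p = 0.119). Without XX replicate 3 at E13.5 the count was 7, and without XX replicate 3 or XY replicate 1 at E12.5 it was 8. In these 3 settings *Tex12*, *Rec114*, *Msh4*, *Msh5* and *Tex11* were no longer called.

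**Figure D2:**
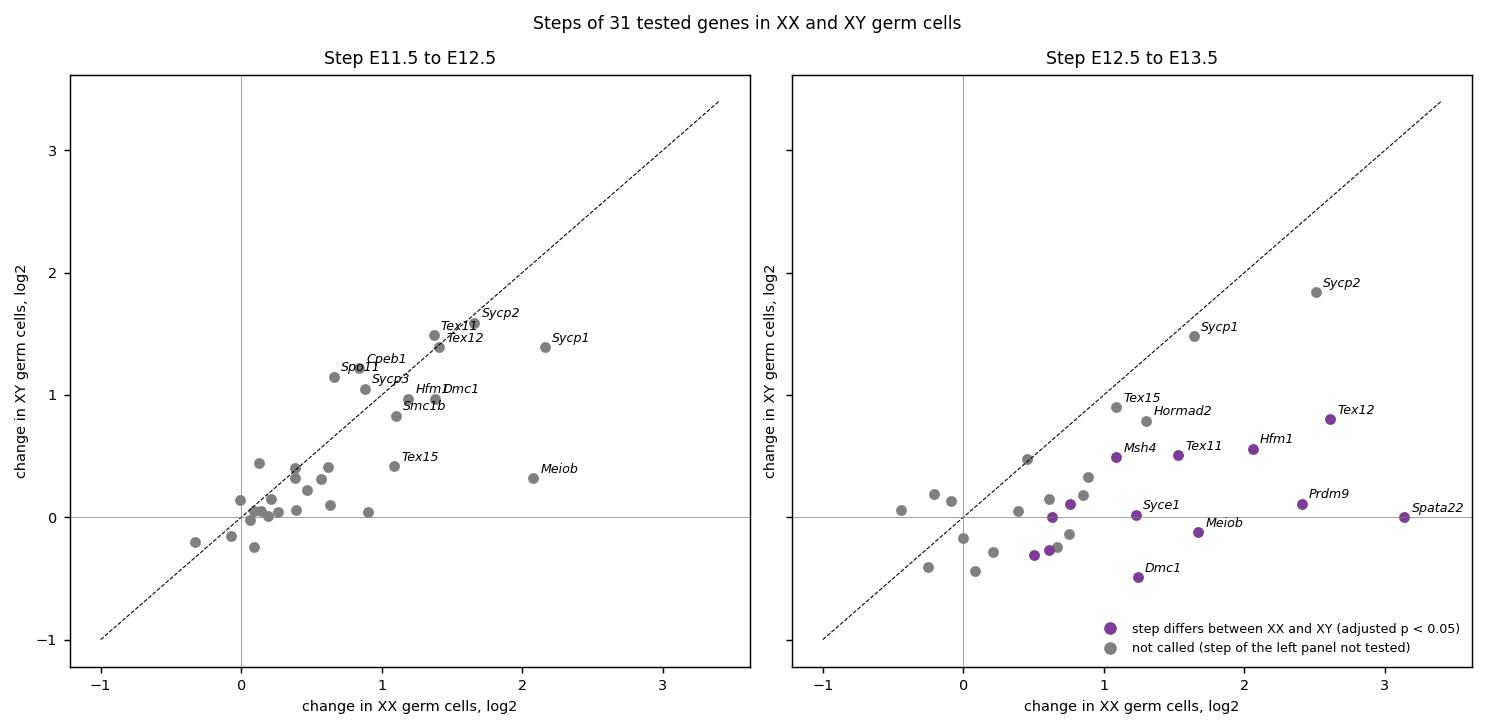
Change of 31 tested genes in XX germ cells (horizontal axis) and in XY germ cells (vertical axis), in log2 units, for the step from E11.5 to E12.5 (left) and from E12.5 to E13.5 (right). Points on the dashed line changed alike in both sexes, and purple points are the 13 genes whose second step differed between the sexes (adjusted p under 0.05). In the right panel *Spata22* lies at 3.14 in XX and 0 in XY germ cells, and *Sycp2* at 2.51 and 1.84.

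The genes that build the synaptonemal complex rose in both sexes at first, and most were higher at E13.5 in XX germ cells. Of 6 tested genes 5 rose in XX and 4 in XY germ cells from E11.5 to E12.5, where 3.44% and 1.79% of all clusters did. In the step from E12.5 to E13.5, 5 rose in XX and 2 in XY germ cells, where 4.92% and 3.69% did. Higher at E13.5 in XX germ cells were 5 of the 6, where 10.1% of all clusters were. *Sycp1*, which encodes the transverse filament, had 10.31, 10.44 and 10.58 in XX germ cells at E13.5, against 9.29, 9.79 and 9.81 in XY germ cells, so that the arrays of the sexes did not overlap. It was 1.76-fold higher in XX germ cells (adjusted p = 0.0119). Without XX replicate 3 or without XY replicate 1 at E13.5 this difference was not called (adjusted p = 0.0586 and 0.0992). In each sex both steps of *Sycp1* were called, with changes over both steps of 3.8 in XX and 2.86 in XY germ cells.

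*Sycp2*, whose protein lies in the lateral elements, rose in both sexes. Its levels were 5.4, 6.02 and 5.61 in XX and 6.17, 6.43 and 5.63 in XY germ cells at E11.5. At E13.5 they were 9.42, 9.75 and 10.37 in XX and 9.19, 9.61 and 9.71 in XY germ cells. The arrays of the sexes overlapped at both stages, and at E13.5 the difference was 0.34 with a 95% interval of -0.03 to 0.71 (adjusted p = 0.216). With the replicate number as a block the difference of *Sycp2* at E13.5 was called (adjusted p = 0.0498). *Sycp3*, the other lateral element gene, already had 8.82, 9.63 and 8.95 in XX and 8.39, 8.8 and 8.55 in XY germ cells at E11.5. At E13.5 it had 10.66, 10.95 and 10.97 in XX and 9.69, 9.81 and 9.9 in XY germ cells, a 2.09-fold difference (adjusted p = 3.6e-04).

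The central element genes differed among themselves. *Syce1* had 9.9, 10.34 and 10.65 in XX germ cells at E13.5, against 8.79, 8.38 and 8.62 in XY germ cells, which was 3.24-fold higher (adjusted p = 3.0e-13). *Tex12* varied the most between arrays of a group, with 7.03, 7.61 and 5.76 in XX and 7.01, 7.6 and 5.06 in XY germ cells at E12.5, where replicate 3 was the lowest in both sexes. At E13.5 it had 9.15, 9.23 and 9.84 in XX germ cells, against 7.31, 7.54 and 7.23 in XY germ cells (4.14-fold, adjusted p = 2.0e-06). *Syce2* was near its highest level from the start, at 11.4 ± 0.1 in XX and 11.34 ± 0.07 in XY germ cells at E11.5 (SD, n = 3 each). Neither step of *Syce2* was called in either sex, yet at E13.5 its level of 11.79 ± 0.22 in XX germ cells was 1.65-fold higher than 11.07 ± 0.17 in XY germ cells (adjusted p = 2.9e-04).

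Genes of the chromosome axis and of meiotic cohesin were expressed in both sexes before any sex difference. Of the 5 tested genes all were above the somatic sorts at E11.5 in both sexes, where 25.3% of all clusters were in XX and 27.0% in XY germ cells. *Hormad1*, 1 of the 5, passed the filter only through germ cells. At E13.5, 4 of the 5 were higher in XX germ cells and 1 was lower, where 10.1% and 10.9% of all clusters were. *Smc1b*, a meiotic cohesin subunit, had 9.85, 10.29 and 9.85 in XX and 9.87, 9.72 and 9.63 in XY germ cells at E11.5. At E13.5 it had 11.61, 11.95 and 11.98 in XX germ cells, all above the 10.57, 10.34 and 10.38 of XY germ cells, a 2.67-fold difference (adjusted p = 5.7e-07). *Stag3*, another cohesin subunit, was 1.76-fold higher at E13.5 in XX germ cells, at 11.23 ± 0.12 in XX and 10.41 ± 0.06 in XY germ cells (adjusted p = 3.5e-04).

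*Hormad2*, which encodes an axis protein of unsynapsed chromosomes, was among the 3 genes already higher in XX germ cells at E12.5. It had 8.61, 9.18 and 8.59 in XX germ cells at E12.5, against 7.91, 7.99 and 7.74 in XY germ cells (1.88-fold, adjusted p = 0.0213), and the difference had grown to 2.68-fold at E13.5. *Hormad1*, its relative, had 8.35, 8.48 and 8.38 in XX germ cells at E13.5 and 8.03, 6.85 and 6.87 in XY germ cells, where replicate 1 stood apart from the other XY arrays. The difference was 2.22-fold (adjusted p = 5.8e-05), and a second cluster of the gene gave 10.31, 10.28 and 10.31 in XX and 9.3, 8.82 and 8.82 in XY germ cells. By that cluster the first step was called in XY germ cells too (0.7 ± 0.17, SE, adjusted p = 0.00712), whereas the other cluster rose by the calls in XX germ cells only.

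*Trip13* and *Rad21l* were the exceptions of this group. *Trip13*, an ATPase that removes HORMAD proteins from the axis and also works in the spindle checkpoint of dividing cells, was the only tested gene of the set lower in XX germ cells at E13.5, with 9.5, 9.56 and 9.26 in XX and 10.17, 9.89 and 10.28 in XY germ cells. The difference between XX and XY germ cells at that stage was -0.68 on the log2 scale (adjusted p = 3.4e-04). Its step from E12.5 to E13.5 was -0.44 in XX germ cells (adjusted p = 0.0406). The difference of this step from that of XY germ cells was -0.5 and was not called (adjusted p = 0.233). *Rad21l*, a meiotic kleisin of cohesin, was not tested, since only 1 array passed the limit of 6, with 5.58, 5.96 and 7.73 in XX germ cells at E13.5, against 4.57, 4.69 and 4.82 in XY germ cells. A second cluster of the gene passed the filter, through XX germ cells of E13.5 alone, with 5.8, 6.38 and 7.03 in XX and 4.56, 4.6 and 4.67 in XY germ cells at that stage.

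All 5 genes of break formation were higher at E13.5 in XX germ cells, where 10.1% of all clusters were. By the calls 3 of them (*Prdm9*, *Mei1* and *Rec114*) rose in XX germ cells only, where 5.2% of all clusters did. *Prdm9*, a histone methyltransferase that sets the sites of recombination, had 6.42, 6.44 and 6.31 at E11.5, 7.1, 6.59 and 6.62 at E12.5 and 8.71, 8.78 and 10.05 at E13.5 in XX germ cells. XY germ cells stayed between 6.03 and 6.68 at all 3 stages. The difference at E13.5 was 5.96-fold (adjusted p = 6.4e-18), and replicate 3 of the XX arrays was more than 1 unit above the other XX arrays. The XY levels of *Prdm9* were not called above the somatic sorts at any stage, whose group means were 6.34 to 6.74. Its fold is thus one against a level near the limit of 6. *Mei1*, needed for the breaks, had 6.85, 6.85 and 7.53 in XX and 6.37, 6.28 and 6.21 in XY germ cells at E13.5 (1.73-fold, adjusted p = 6.7e-07).

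*Rec114* and *Mei4*, whose proteins form a complex with others at the axis, differed in their start. *Rec114* had 8.97, 8.51 and 8.68 in XX germ cells at E13.5 and 7.66, 7.58 and 7.44 in XY germ cells (2.23-fold, adjusted p = 1.9e-07). *Mei4* was lower in XX germ cells at E12.5, with 6.26, 6.35 and 6.04 in XX and 6.65, 6.78 and 6.36 in XY germ cells (-0.38 ± 0.11, SE, adjusted p = 0.0315), and higher at E13.5, with 6.55, 7.17 and 6.77 in XX and 6.47, 6.08 and 6.42 in XY germ cells (0.51 ± 0.11, adjusted p = 3.8e-04). The arrays of the sexes overlapped at neither stage. With the replicate number as a block the difference of *Mei4* at E12.5 was not called. *Spo11*, the gene of the break-making enzyme, rose in both sexes, by 1.55 in XX and 1.48 in XY germ cells from E11.5 to E13.5. Its 7.33, 7.8 and 8.05 in XX germ cells at E13.5 overlapped with 6.72, 7.41 and 7.02 in XY germ cells, although the difference of 0.68 was called (adjusted p = 7.0e-04). In a fit of the 18 germ cell arrays alone it was not (adjusted p = 0.067).

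Of the 6 tested genes of strand exchange and repair 3 were higher at E13.5 in XX germ cells, where 10.1% of all clusters were, and 3 were not called. *Meiob*, whose product binds single-stranded DNA at the breaks, showed the earliest large difference. It had 4.82, 5.08 and 5.11 at E11.5, 7.15, 7.71 and 6.39 at E12.5 and 8.25, 8.98 and 9.05 at E13.5 in XX germ cells. In XY germ cells it stayed between 4.47 and 5.6, below the limit of 6, so that its folds are those of measured intensities against a level near the array's background. It was 4.09-fold higher in XX germ cells at E12.5 (adjusted p = 1.3e-11) and 14.2-fold higher at E13.5 (adjusted p = 8.0e-23).

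*Spata22*, whose protein works with MEIOB, was over 6 only in XX germ cells of E13.5. It had 5.08, 4.64 and 4.7 in XX and 4.75, 4.66 and 4.73 in XY germ cells at E12.5, a difference of 0.1 with a 95% interval of -0.14 to 0.33. At E13.5 it had 7.58, 7.77 and 8.49 in XX and 4.57, 4.94 and 4.63 in XY germ cells (9.42-fold on measured intensities, against a level under 6 in XY germ cells). *Dmc1*, the meiotic recombinase, rose in both sexes at the first step, to 9.42, 9.16 and 9.29 in XX and 8.66, 9.25 and 8.11 in XY germ cells at E12.5, which overlapped. At E13.5 it had 10.13, 10.49 and 10.95 in XX and 8.43, 8.01 and 8.1 in XY germ cells (5.08-fold, adjusted p = 3.8e-12).

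*Psmc3ip*, a partner of DMC1, *Rad51c*, a gene of recombination repair, and *Brip1*, a helicase that binds BRCA1, were not called in any comparison within germ cells in the fit without a block. Their levels lay between 8.65 and 9.92 in single germ cell arrays of both sexes. At E13.5 the differences between XX and XY germ cells were 0.3 (95% interval -0.12 to 0.73) for *Psmc3ip*, 0.1 (-0.32 to 0.53) for *Rad51c* and 0.44 (0.1 to 0.77) for *Brip1* (adjusted p = 0.374, 0.836 and 0.0517). With the replicate number as a block *Brip1* was called higher in XX germ cells (adjusted p = 0.0493).

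Of the 5 crossover genes 3 were higher at E13.5 in XX germ cells, where 10.1% of all clusters were. *Msh4* was higher in XX germ cells at E12.5, with 5.99, 6.21 and 5.76 in XX and 5.39, 5.47 and 5.26 in XY germ cells (1.52-fold, adjusted p = 2.4e-04), and 2.31-fold higher at E13.5, with 6.61, 7.05 and 7.57 in XX and 5.5, 6.07 and 6.03 in XY germ cells. Both means at E12.5 (5.98 in XX and 5.38 in XY) and the XY mean at E13.5 (5.87) lay under 6. The folds of *Msh4* are thus those of measured intensities against levels under that limit. Its partner *Msh5* was level until E12.5 and had 6.85, 6.84 and 7.61 in XX and 6.71, 6.42 and 6.36 in XY germ cells at E13.5 (1.52-fold, adjusted p = 4.3e-04). Without XX replicate 3 at E13.5 the difference of *Msh5* was 0.35 and was not called (adjusted p = 0.0525). *Hfm1*, a helicase of crossover formation, rose in both sexes, to 8.47, 9.15 and 9.52 in XX and 7.19, 7.7 and 7.51 in XY germ cells at E13.5 (2.98-fold, adjusted p = 8.8e-10). A second cluster of *Hfm1* gave a difference of 1.49 ± 0.18 (SE) at E13.5, but its larger second step in XX germ cells was not called (adjusted p = 0.0684).

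*Tex11*, an X-linked gene of crossover formation, followed a different order of the sexes. At E12.5 it had 6.77, 7.86 and 6.64 in XX and 7.91, 7.98 and 7.44 in XY germ cells, which overlapped, and was called lower in XX germ cells (-0.69 ± 0.19, SE, adjusted p = 0.0179). At E13.5 it had 8.07, 8.91 and 8.87 in XX and 8.05, 8.05 and 8.77 in XY germ cells (adjusted p = 0.245), and its second step was larger in XX germ cells (1.02 ± 0.27, adjusted p = 0.016). *Mlh3*, a mismatch repair gene that also resolves crossovers, stayed between 7.3 and 7.89 in every germ cell array, and no difference was called.

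The 4 genes of other roles followed their own courses. *Tex15*, a germ cell gene of break repair and transposon silencing in the testis, had 9.38, 9.75 and 10.24 in XX and 8.4, 9.18 and 9.22 in XY germ cells at E13.5 (1.81-fold, adjusted p = 0.0048), and this was not called without XX replicate 3 or without XY replicate 1 (adjusted p = 0.0857 and 0.0987). *Tex14*, needed for the bridges between germ cells, rose alike in the sexes, to 10.14 ± 0.17 in XX and 10.12 ± 0.15 in XY germ cells at E13.5 (SD, n = 3 each). Their difference was 0.01, with a 95% interval of -0.28 to 0.31. *Cpeb1*, which binds mRNAs of synaptonemal complex genes in the mouse, was lower in XX germ cells at E12.5, with 9.01, 9.01 and 8.83 in XX and 9.35, 9.52 and 9.48 in XY germ cells (-0.5 ± 0.09, SE, adjusted p = 7.6e-05). It had made 96.2% of its XY rise by then. *Sun1*, which ties telomeres to the nuclear envelope, lay between 8.33 and 9.05 in all germ cell arrays and was not called.

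**Figure D3:**
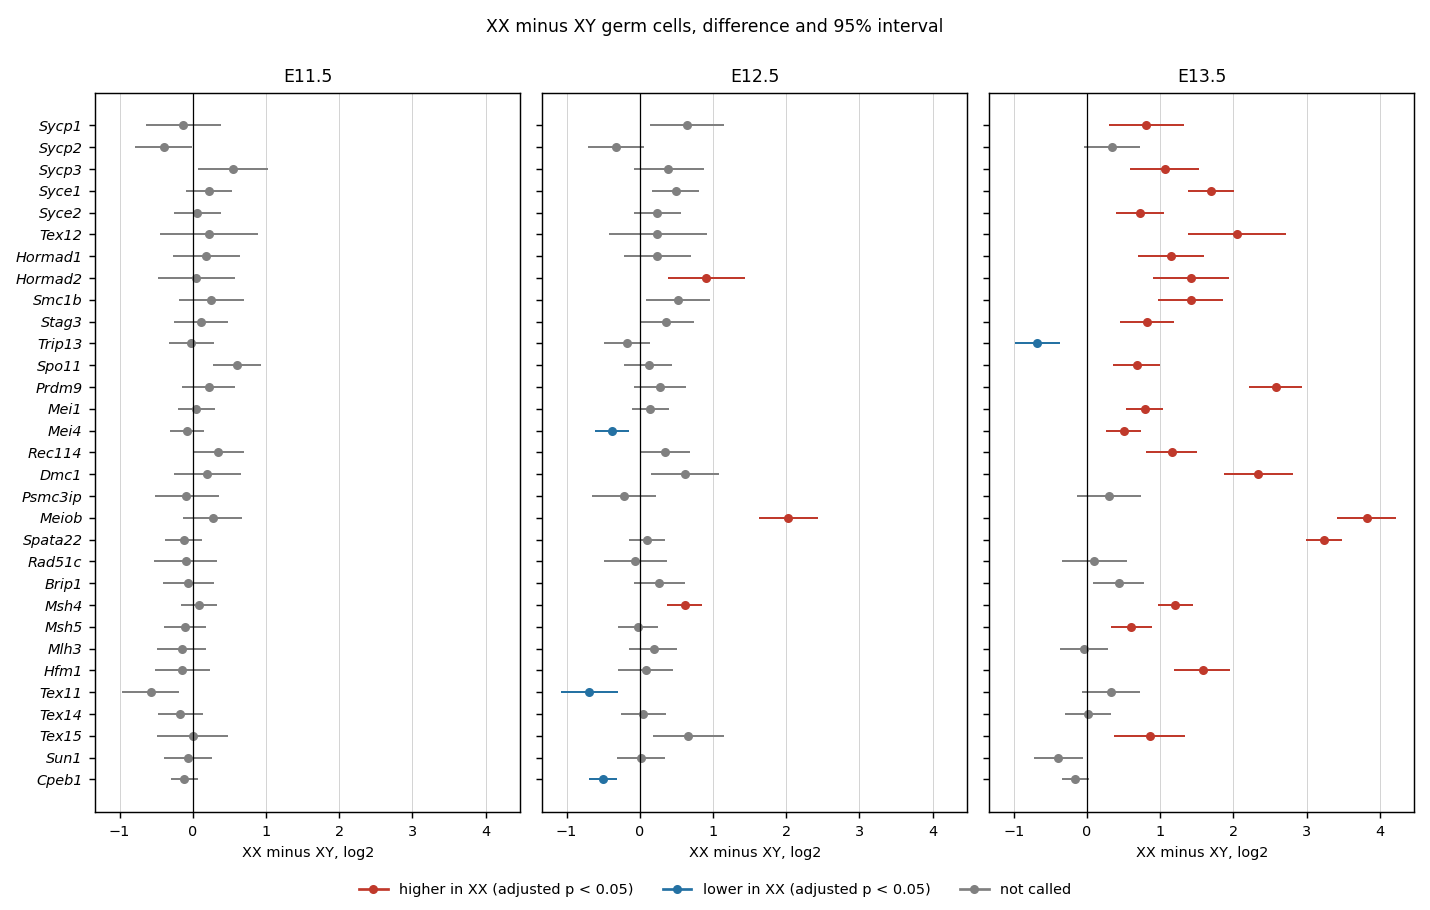
Difference between XX and XY germ cells (XX minus XY, log2) of 31 tested genes at each stage, with 95% intervals of the limma fit. Red marks genes higher and blue genes lower in XX germ cells (adjusted p under 0.05), and grey genes not called. The number of red genes is 0 at E11.5, 3 at E12.5 and 21 at E13.5, with *Meiob* the farthest right at E13.5 (3.82).

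Arrays of 1 group differed from each other over much of the set in several germ cell groups. In XX germ cells at E13.5 replicate 3 was the highest of the 3 for 24 of 32 genes and replicate 1 the lowest for 27, while over all tested clusters these arrays were the highest for 29.6% and the lowest for 27.9%. The median deviation from the group mean was 0.24 for replicate 3 and -0.24 for replicate 1 over the set, and -0.02 and 0.03 over all clusters. In XX germ cells at E12.5 replicate 2 was the highest for 22 genes and replicate 3 the lowest for 19 (median deviations 0.14 and -0.14). Replicate 1 was the lowest for 22 in XX germ cells at E11.5 (-0.14), and replicate 3 for 20 in XY germ cells at E12.5 (-0.11). In XY germ cells at E13.5 the medians lay between 0 and 0.03.

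Promoter sequences of 8 genes are shown as examples, most of them with recognition letters of factors known in germ cells. They are not a sample of the set, and whether these factors act on the genes was not tested. RefSeq promoters (build GRCm38.p6, 250 bases before to 50 after the start) were matched for 30 of the 34 genes, and none was matched for *Spo11*, *Meiob*, *Tex11* and *Tex15*. The letters searched on both strands were CACGTG (an E-box, bound by MYC, MAX and MGA among others), TCCCGC (the core of E2F sites) and CNCCTCAG (bound by STRA8 with MEIOSIN). CACGTG was in the promoters of 8 of 30 genes (26.7%), against 8.1% of 27025 genes with promoters. TCCCGC was in those of 20 of 30 genes (66.7%), against 22.0% of all genes. CNCCTCAG was in those of 8 of 30 genes (26.7%), against 9.1% of all. The promoters of the set held a median of 21 CpG and those of all genes 7, and their letters are richer in G and C (median 61.3% against 52.7%), which moves with these shares and whose part was not tested. The 100 bases before the start are printed 5′ to 3′ on the gene's strand, with complete matches in capitals, from the first of 2 starts of *Hormad1* and the second of 2 of *Prdm9*.
Sycp3 (chr10:88459487-88459586, plus strand): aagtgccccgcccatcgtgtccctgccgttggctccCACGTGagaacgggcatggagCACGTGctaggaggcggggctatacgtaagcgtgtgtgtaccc
Hormad1 (chr3:95559577-95559676, plus strand): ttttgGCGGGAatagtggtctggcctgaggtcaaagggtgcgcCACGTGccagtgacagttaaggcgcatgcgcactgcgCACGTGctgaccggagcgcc
Tex12 (chr9:50561269-50561368, minus strand): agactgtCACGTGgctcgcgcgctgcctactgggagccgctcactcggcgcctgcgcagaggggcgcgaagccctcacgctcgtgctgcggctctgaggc
Rec114 (chr9:58741560-58741659, minus strand): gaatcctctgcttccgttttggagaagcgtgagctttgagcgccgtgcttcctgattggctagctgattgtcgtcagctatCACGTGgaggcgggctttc
Prdm9 (chr17:15564355-15564454, minus strand): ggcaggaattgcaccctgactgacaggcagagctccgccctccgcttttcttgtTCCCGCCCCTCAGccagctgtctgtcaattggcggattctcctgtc
Msh5 (chr17:35046623-35046722, minus strand): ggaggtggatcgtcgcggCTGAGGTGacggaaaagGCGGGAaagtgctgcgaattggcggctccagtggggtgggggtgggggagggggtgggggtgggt
Spata22 (chr11:73329641-73329740, plus strand): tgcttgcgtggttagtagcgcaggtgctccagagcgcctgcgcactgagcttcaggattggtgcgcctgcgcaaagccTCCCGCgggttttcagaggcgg
Msh4 (chr3:153904892-153904991, minus strand): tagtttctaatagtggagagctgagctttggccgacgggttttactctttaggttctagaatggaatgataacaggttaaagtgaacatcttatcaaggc

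*Sycp3* and *Hormad1* held a pair of E-boxes each. In *Prdm9* TCCCGC and CNCCTCAG overlapped, while in *Msh5* both stood apart on the other strand. *Msh4*, with a 2.31-fold difference at E13.5, held none of the 3 in its 300 bases. Of the 8 tested genes with CNCCTCAG 7 were higher at E13.5 in XX germ cells, with a median difference of 1.12, and of 19 without it 11 were, with a median of 0.79. For CACGTG 7 of 8 were higher with it (median 0.94) and 11 of 19 without it (median 0.6), and for TCCCGC 13 of 19 with it (median 0.82) and 5 of 8 without it (median 0.65). These splits are descriptions and were not tested.

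Other genes of meiosis, of recombination in dividing cells and of mitotic cohesion were read against the 10.1% of all clusters called higher and the 10.9% called lower in XX germ cells at E13.5. Of 26 listed partners that act in meiosis 19 were tested, and 16 were higher at E13.5 in XX germ cells and 1 lower, with a median difference of 1.06. The filter keeps a cluster that is over 6 in any 1 group, so partners low elsewhere could be tested through XX germ cells alone. The count and the median may thus be partly set by the filter. *Stra8*, the gene of the meiotic entry factor, had 10.32, 10.25 and 10.47 in XX and 5.39, 5.59 and 5.46 in XY germ cells. *Meioc*, which stabilises meiotic mRNAs, differed by 4.47 ± 0.19 (SE), *M1ap* by 4.02 ± 0.13 and *Terb1*, which tethers telomeres, by 3.12 ± 0.12. The XY means of *Stra8*, *Meioc* and *Terb1* (5.48, 5.35 and 5.34) were under 6 and that of *M1ap* was 6.21, so that these are differences of measured intensities against levels near or under the limit. Of 32 tested genes of homologous recombination shared with mitotic cells 9 were higher at E13.5 in XX germ cells and 1 lower, with a median difference of 0.18. Among these *Brca2*, which loads DMC1 on DNA, had 10.13, 10.39 and 10.66 in XX and 9.34, 9.04 and 9.57 in XY germ cells (1.07 ± 0.19). Of 14 mitotic cohesin genes 2 were higher in XX germ cells and 1 lower, with a median difference of -0.03, and *Rad21*, the mitotic kleisin, was the lower one (-0.37 ± 0.08, adjusted p = 1.6e-04). The difference between lists was not tested.

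Most of the set was above the somatic sorts in germ cells of both sexes from E11.5 on. Germ cells were compared with the mean of the supporting, stromal or interstitial and endothelial cells of their sex and stage. In XX germ cells 26, 27 and 30 of the 31 genes were higher at the 3 stages in order, where 25.3%, 27.0% and 26.3% of all clusters were. In XY germ cells 26, 25 and 26 were, where 27.0%, 26.0% and 27.0% of all clusters were. The median difference was 1.18, 2.32 and 3.3 in XX germ cells and 1.1, 1.94 and 1.91 in XY germ cells, and between -0.03 and 0.02 over all clusters. *Sycp2*, *Syce1*, *Tex12*, *Hormad1*, *Spo11*, *Mei4*, *Meiob*, *Spata22*, *Msh4*, *Hfm1*, *Tex11* and *Cpeb1* passed the filter only through germ cell groups. They had to lie higher in some germ cell group, so their part in these counts and medians was partly set by the filter. The 5 genes not above the somatic sorts at E11.5 were *Prdm9*, *Mei1*, *Spata22*, *Msh4* and *Msh5* in both sexes. At E13.5 *Mlh3* alone was not called in XX germ cells, and *Prdm9*, *Mei1*, *Psmc3ip*, *Msh5* and *Mlh3* were not called in XY germ cells.

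**Figure D4:**
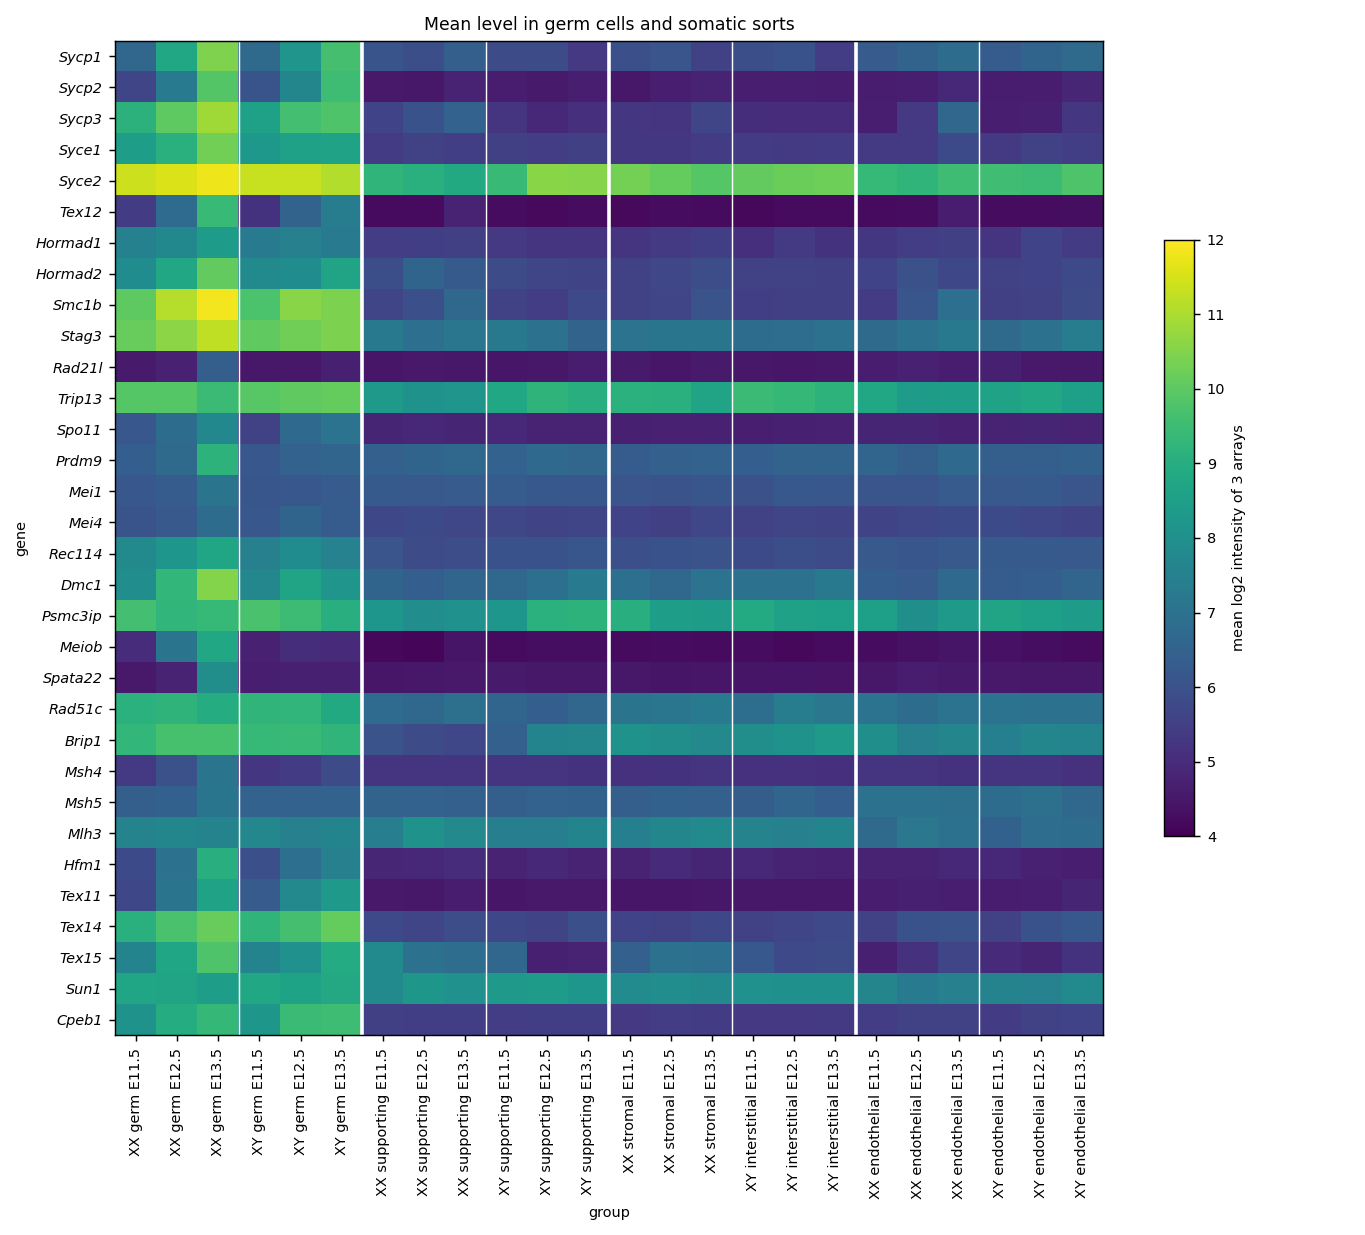
Mean log2 intensity (3 arrays per group) of 32 genes in germ cells and in the somatic sorts, with XX groups left of XY groups and stages in order within each. Colours run from 4 to 12. *Syce2*, *Trip13*, *Psmc3ip*, *Mlh3* and *Sun1* also have means above 6 in every somatic group, *Tex15* is over 6 in 8 somatic groups (all XX supporting and XX stromal groups, and XY supporting and XY interstitial cells at E11.5), and *Sycp2*, *Meiob* and *Spata22* are dark in every somatic group.

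In the somatic sorts 13 genes of the set stayed under the limit and the others passed it in some or all groups. The group means of *Sycp2*, *Syce1*, *Tex12*, *Hormad1*, *Rad21l*, *Spo11*, *Mei4*, *Meiob*, *Spata22*, *Msh4*, *Hfm1*, *Tex11* and *Cpeb1* were under 6 in all 18 somatic groups. Between these and the genes over 6 in every group lay *Hormad2* (over 6 in 2 somatic groups), *Sycp3* and *Tex14* (3 each), *Smc1b* (4), *Tex15* (8), *Sycp1* (9), *Rec114* (11), *Brip1* (16) and *Mei1* (17). Of the 10 genes over 6 throughout *Syce2* had somatic means of 8.86 to 10.58, *Trip13* of 8.12 to 9.44 and *Psmc3ip* of 7.91 to 9.17, and *Stag3* stayed between 6.56 and 7.37. *Prdm9* lay between 6.34 and 6.74 in the somatic group means, where XY germ cell arrays had 6.03 to 6.68.

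*Tex15* was also measured in somatic cells. In XX supporting cells it had 7.57, 7.73 and 8.14 at E11.5, and the mean of 7.81 ± 0.29 lay close to the 7.61 ± 0.31 of XX germ cells at that stage (SD, n = 3 each). XX supporting cells had means of 6.98 and 6.86 at E12.5 and E13.5, and XY supporting cells 6.63, 4.7 and 4.81 at the 3 stages. XX stromal cells had means of 6.44, 7.03 and 6.93 and XY interstitial cells 6.19, 5.75 and 5.83. At E13.5 it was 4.13-fold higher in XX than in XY supporting cells (adjusted p = 2.3e-10) and 2.15-fold higher in XX stromal than in XY interstitial cells (adjusted p = 5.5e-04). Endothelial cells had means between 4.69 and 5.66, and the *αSma-EYFP* sorts, which were not in this fit, had 6.01 to 7.32. The defining germ cell markers *Ddx4* and *Dazl* were at 5.14 and 4.8 in XX supporting cells at E11.5, where 4 of the 8 germ cell markers were over 6 and the mean of the list was 6.01 to 6.15 in XX and 6 to 6.19 in XY arrays.

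In supporting cells at E13.5 the set was called about as often as all clusters. There 5 of 31 genes were higher in XX supporting cells and 5 lower, where 14.7% of all clusters were higher and 14.7% lower, so the genes are named for their values and no result about the set is read from the count. The lower ones were *Brip1*, with 5.78, 5.74 and 5.61 in XX and 7.69, 7.75 and 7.53 in XY supporting cells (adjusted p = 1.7e-14), *Syce2* (9.19, 8.66 and 8.74 in XX and 10.62, 10.65 and 10.39 in XY supporting cells, adjusted p = 2.7e-13), *Psmc3ip* (-1.13 ± 0.21, SE), *Trip13* (-0.85 ± 0.15) and *Dmc1* (-0.69 ± 0.23). Among the 32 shared recombination genes 14 were lower in XX supporting cells and 0 higher (2 at an unadjusted p under 0.05), with a median difference of -0.29. The XX cells were sorted with *Sry-EGFP* and the XY cells with *Sox9-ECFP* at this stage, so reporter and sex cannot be told apart here.

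The higher genes in XX supporting cells, besides *Tex15*, were *Sycp3*, *Sycp1*, *Smc1b* and *Stag3*. *Sycp3* had 6.78, 6.06 and 6.73 in XX and 5.05, 5.07 and 5.18 in XY supporting cells (adjusted p = 1.3e-06), and *Smc1b* had 7.02, 5.85 and 7.27 in XX and 5.64, 5.93 and 5.75 in XY supporting cells, which overlapped (adjusted p = 4.1e-04). Of the 8 markers, 4 were over 6 in XX and 4 in XY supporting cells at E13.5, and the mean over the list ranged from 6.28 to 6.84 in XX and from 6.43 to 6.46 in XY arrays. *Ddx4* averaged 5.83 in XX and 5.93 in XY supporting cells, and *Dazl* 5.83 and 5.68 in the same groups. Of the 8 markers 1 was called higher and 1 lower in XX supporting cells, where 14.7% of all clusters were in each direction. Their differences ran from -0.7 to 0.82 on the log2 scale. The part of germ cell RNA in these differences was not tested.

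In the other somatic sorts few genes of the set differed between the sexes at E13.5. In endothelial cells 2 were higher in XX cells and 0 lower (1 at an unadjusted p under 0.05), where 1.49% of all clusters were higher and 3.82% lower. These were *Sycp3*, with 6.64, 6.63 and 6.68 in the XX sort and 5.2, 5.4 and 5.22 in the XY sort (adjusted p = 1.9e-05), and *Smc1b*, with 7.08, 6.91 and 6.76 in the XX sort and 5.86, 5.91 and 5.85 in the XY sort (adjusted p = 5.1e-04). The germ cell marker list averaged 6.74 to 6.98 in these XX arrays and 6.99 to 7.22 in the XY arrays, with 6 of 8 markers over 6 in both. Of the 8 markers 1 was called lower and 0 higher in XX cells. Their differences ran from -1.67 to 0.15 with a median of -0.06, and the part of germ cell RNA was not tested. Between XX stromal and XY interstitial cells 1 gene was higher (*Tex15*) and 2 were lower (*Trip13* and *Brip1*), where 3.53% of all clusters were higher and 5.14% lower.

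**Figure D5:**
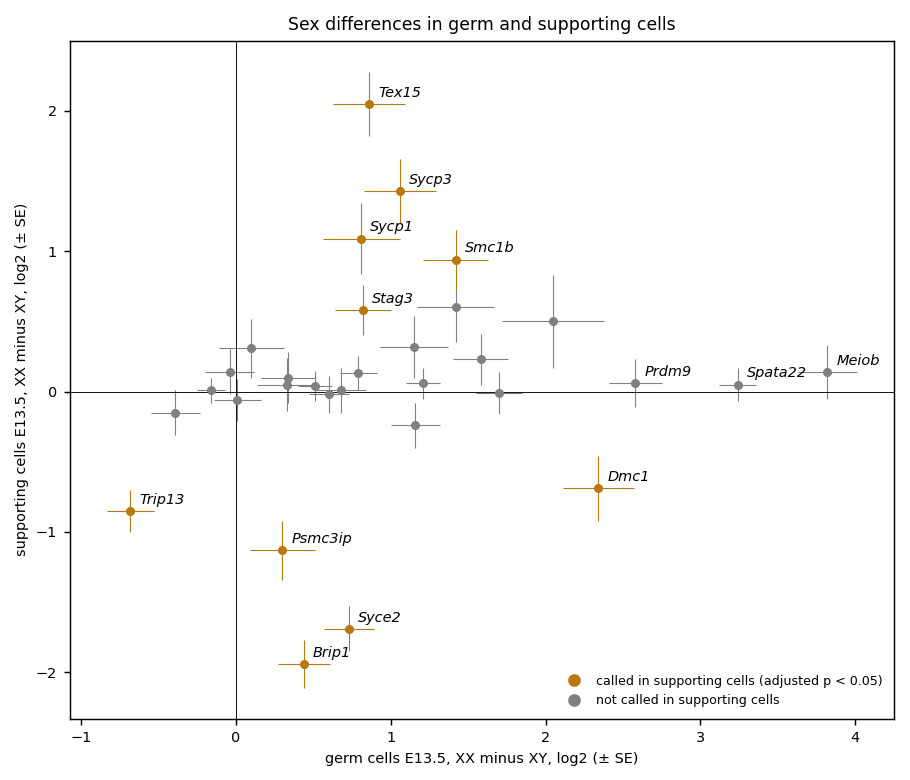
Difference between XX and XY cells at E13.5 (XX minus XY, log2) in germ cells (horizontal axis) and in supporting cells (vertical axis) for 31 tested genes, with standard errors of the limma fit as bars. Orange genes were called in supporting cells (5 higher and 5 lower in XX). *Meiob*, *Spata22* and *Prdm9* lie far to the right and near 0 in supporting cells, while *Brip1* and *Syce2* lie below -1.6 there.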

How the data were processed

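The authors summarised the arrays with GCOS and Partek, by RMA with quantile normalization in their methods, and deposited log2 intensities of 35557 transcript clusters on 91 arrays (values from 3.54 to 14.12, array medians from 6.555 to 6.811). These were used as deposited. Clusters naming 1 gene (21789) were kept, those naming several (1621) or none (12147) were left out, and 16820 were tested, those over 6 in 2 or more arrays of any 1 group. The whole newborn array was not used and the 18 *αSma-EYFP* arrays entered only an alternative.

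Groups were compared with limma 3.58.1 in R 4.3.3 (1 mean per group, 48 residual degrees of freedom), with Benjamini-Hochberg adjustment over all tested clusters and a limit of 0.05. On simulated data for XX minus XY germ cells at E13.5 (16820 clusters) 93% of log2 changes of 1 and 100% of changes of 2 were recovered. The simulated noise was independent between clusters, without the shifts of whole arrays seen over the set. These shares therefore check the fit and do not give the recovery for the set. The number of arrays limits the precision. Each p-value rests on 1 estimate per cluster of the spread between pools of embryos, shared by the 24 groups, most of them somatic. For genes that lie flat near background in the somatic sorts, this estimate can be smaller than the spread between germ cell pools. Standard errors and p-values of such genes can then be too small. XX and XY germ cell arrays of the same number deviated together at E12.5 (r = 0.13, 0.135 and 0.208) and at E11.5 (r = 0.196, 0.234 and 0.076). Pairs of unlike number reached at most -0.006 at E12.5 and -0.003 at E11.5. At E13.5 pairs of the same number had r = 0.173, 0.01 and 0.144, and those of unlike number at most 0.029. The main fit does not use this pairing, so the block is given as an alternative. The members and lists were chosen with earlier results of these data known. Any member could be named, and of each list up to 4 of the called genes with the largest difference between XX and XY germ cells at E13.5, while *Rad21* was named after its value was seen. Promoters came from RefSeq tables of build GRCm38.p6. The reporter of the stromal and interstitial sorts is not reported here.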

Additional observations from a re-analysis of the deposited data

Results flagged for a closer look

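The change from E12.5 to E13.5 differed between XX and XY germ cells, by a test of the difference itself, for 13 genes, and each was larger in XX germ cells. The differences of the steps on the log2 scale were 3.14 for *Spata22*, 2.3 for *Prdm9* (adjusted p = 7.4e-10), 1.81 for *Tex12*, 1.79 for *Meiob*, 1.73 for *Dmc1*, 1.5 for *Hfm1*, 1.21 for *Syce1*, 1.02 for *Tex11*, 0.88 for *Mei4*, 0.82 for *Rec114*, 0.65 for *Mei1*, 0.63 for *Msh5* and 0.6 for *Msh4* (limma, adjusted p of the 11 from *Tex12* on between 9.7e-06 and 0.0478). *Spata22* passed the filter on low values only through XX germ cells of E13.5, and its other germ cell groups were under a log2 intensity of 6, so its value is one of measured intensities near background. *Meiob* passed it only through XX germ cells of E12.5 and E13.5. Its XY means were under 6 at every stage, so its value is also one against levels under that limit. *Mei4* and *Tex11* were also called lower in XX than in XY germ cells at E12.5, and the other 11 were not.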

How the results depend on the processing

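Of 724 counts under alternatives, 687 were within 1.5 times the value reported, and of 594 differences at E13.5 587 kept their call, 7 lost it and 0 changed direction. Counts that moved follow, with 1 or 2 genes deciding most of them, and the cause was not tested. With the limits of the study (unadjusted p under 0.05, fold over 1.5), XX minus XY germ cells gave 1 higher at E11.5, and 6 higher and 1 lower at E12.5, the XX step to E13.5 gave 0 lower, and stromal against interstitial cells gave 2 higher and 0 lower. Germ cell arrays alone gave 1 lower at E12.5, and 3 higher and 2 lower in the XY step to E13.5. Adding the *αSma-EYFP* arrays gave 1 higher at E11.5 and 2 higher in stromal cells. Quantile normalization again gave 0 lower in the XX step to E13.5 and 1 lower in stromal cells. With the replicate number as a block, 1 gene (*Spo11*) was higher at E11.5, and 23 were higher at E13.5, with *Sycp2* and *Brip1* added, while the difference of the steps kept 12 of 13 genes (*Msh5* lost, *Sycp2* gained) and *Mei4* was lost at E12.5. *Mei4* fell under the fold limit at E13.5 (0.51).

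Leaving out 1 germ cell array at a time, or XY endothelial replicate 2 at E11.5 (chosen after seeing the data), gave XX minus XY counts of 0 to 1 higher and 0 to 1 lower at E11.5, 2 to 4 and 1 to 3 at E12.5, and 18 to 24 and 1 to 2 at E13.5. XX steps gave 10 to 16 higher, then 17 to 24 higher and 0 to 1 lower. XY steps gave 7 to 11 higher, then 2 to 8 higher and 0 to 2 lower, and the difference of the steps 7 to 14. Levels near 6 are the limit of what the arrays show for *Rad21l* and *Spata22* outside XX germ cells of E13.5, for *Meiob* in XY germ cells and at E11.5, and for *Msh4* outside XX germ cells of E13.5. *Prdm9*, *Mei1* and *Msh5* in XY germ cells were near it too and were not called above the somatic sorts at any stage.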
